A study of Homo sapiens with 8 samples.

Results

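The genes described here are 52 genes of the endoplasmic reticulum (ER) secretory pathway, out of 60671 genes listed. They were chosen by symbol as ER folding, translocation and ER-associated degradation (ERAD) genes, with earlier results of these data known. All 52 symbols were found, and all 52 passed the filter on low values in every comparison. They were measured by RNA sequencing in MM.1S, an established human multiple myeloma line of WT genotype and thus 1 cell line, in 4 groups of 2 samples collected after 12 h. One group received vehicle, one FeAc, an iron compound, one bortezomib, an inhibitor of the proteasome, and one bortezomib plus FeAc. The methods name 2 biological replicates and no shared origin for samples of the same number. The last group is also called the group under both agents. Levels are in TPM, a unit of transcript abundance whose values are scaled to gene length and to a common total in each sample. They are shares of that total, so a comparison between samples also depends on what the other genes take up.

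Plasma cells and the myeloma cells derived from them make and export antibody, and proteins bound for export enter the ER through the SEC61 channel, lose their signal peptide to signal peptidase, and are folded by chaperones, lectins and disulfide isomerases. Chains that do not fold are recognised, moved back to the cytosol and destroyed by the proteasome, which is ERAD. When unfolded chains build up, the sensors IRE1 (encoded by ERN1), ATF6 and PERK start the unfolded protein response: IRE1 splices XBP1 mRNA into the form that encodes an active transcription factor, cleaved ATF6 and spliced XBP1 act on promoters that carry ER stress elements, and PERK raises translation of ATF4. Plasma cell differentiation itself needs XBP1.

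The ER stress elements are shown because they are the sequences through which a part of these genes is known to be controlled. In the RefSeq promoters of GRCh38.p14, 48 of the 52 genes had an entry and DERL1, DERL3, PDIA3 and SPCS1 had none. The 250 bases before each start were searched on both strands. The ER stress element, ERSE, was searched as CCAAT, any 9 bases and CCACG and was found in 8 of the 48 genes (16.7%), against 25 of 27305 genes with an entry (0.0916%). A related shorter element, ERSE-II, was searched as ATTGG, any 1 base and CCACG and was found in 3 of the 48 (6.25%), against 18 of all genes (0.0659%). The members are counted among all genes. Because a part of them is already known to be controlled through these elements, the shares are a description and not a test. The sites are printed in the direction of the gene, on the minus strand for HSPA5, PDIA6, ERO1B, XBP1 and HYOU1 and on the plus strand for the others, with the fixed letters of the element in capitals. Elements that lie on the opposite strand show CGTGG first.
HSPA5, ERSE, chr9:125241386-125241414: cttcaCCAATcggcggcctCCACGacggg
HSP90B1, ERSE, chr12:103930211-103930239: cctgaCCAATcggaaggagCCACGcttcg
HSP90B1, ERSE, chr12:103930316-103930344: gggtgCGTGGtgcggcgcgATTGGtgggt
CALR, ERSE, chr19:12938379-12938407: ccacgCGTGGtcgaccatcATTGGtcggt
CANX, ERSE, chr5:179698773-179698801: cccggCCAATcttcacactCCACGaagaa
CRELD2, ERSE, chr22:49918549-49918577: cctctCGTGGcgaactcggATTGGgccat
PDIA6, ERSE, chr2:10812848-10812876: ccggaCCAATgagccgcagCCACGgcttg
ERO1B, ERSE, chr1:236282178-236282206: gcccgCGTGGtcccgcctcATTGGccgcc
XBP1, ERSE, chr22:28800598-28800626: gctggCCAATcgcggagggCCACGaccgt
SDF2L1, ERSE-II, chr22:21642109-21642129: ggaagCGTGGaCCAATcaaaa
HYOU1, ERSE-II, chr11:119057375-119057395: cgtgaCGTGGtCCAATcccag
HYOU1, ERSE-II, chr11:119057269-119057289: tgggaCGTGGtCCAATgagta
HERPUD1, ERSE-II, chr16:56932020-56932040: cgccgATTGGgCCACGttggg

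HSPA5, HSP90B1, CALR, CANX, CRELD2, ERO1B, PDIA6, SDF2L1, HYOU1, HERPUD1 and XBP1 thus each carried at least 1 exact match. HSPA5, HSP90B1, CALR, CRELD2, CANX, SDF2L1 and HYOU1 encode chaperones or their partners, PDIA6 and ERO1B act in disulfide formation, HERPUD1 in ERAD, and none of the translocation and signal peptidase genes with an entry had one. The core of the unfolded protein response element, UPRE, searched as TGACGTGG, was found in HYOU1, SEC62, SSR3, SSR4 and TXNDC5 (10.4% of the 48, against 0.780% of all genes), and in HYOU1 it overlapped an ERSE-II site. The ATF4 element TGATGCAAT was found in 0 of the 48 genes and in 0.271% of all genes. A match of letters is a description of the window and not a site of binding.

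**Figure D1:**
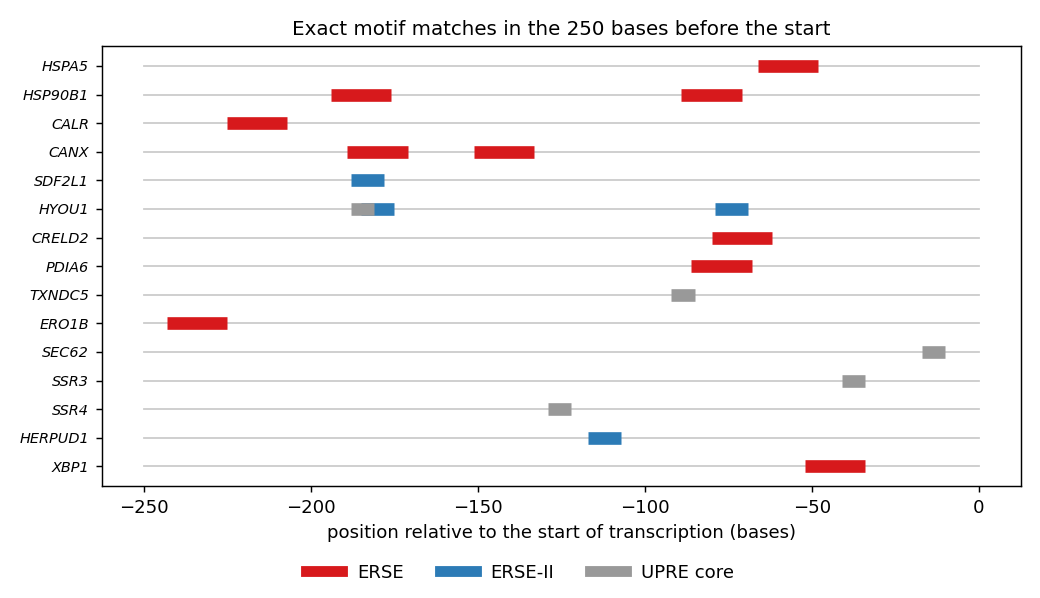
Positions of exact matches to ERSE, ERSE-II and the UPRE core in the 250 bases before the annotated start of transcription, for the genes that carry any (x axis, bases from the start; y axis, genes). CANX appears with 2 bars because 1 site was counted from 2 annotated starts, and the exact ERSE match of HSPA5 ends 48 bases before the start.

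HSPA5, the gene of the ER chaperone BiP, is the member with the largest difference with bortezomib, and its promoter is shown at length for that reason. The 150 bases before its start (chr9:125241344-125241493, minus strand) read as follows, with the exact match to ERSE in capitals. Inexact matches were not searched and are not marked.
HSPA5 promoter: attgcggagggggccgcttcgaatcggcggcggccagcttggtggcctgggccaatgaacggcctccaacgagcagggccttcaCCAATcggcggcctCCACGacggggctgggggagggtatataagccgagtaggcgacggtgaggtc

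Together the 52 genes took between 1.40% and 1.78% of all TPM in a library. The isomerase gene TXNDC5 had the highest level among them, at 2483 ± 137 TPM with vehicle (mean ± SD, n = 2), followed by SEC11C, the catalytic subunit of signal peptidase that is abundant in secretory cells, at 1444 ± 331 TPM, and the chaperone HSP90B1 at 1229 ± 64.2 TPM. The spread of SEC11C covered the mean of HSP90B1. ERO1B, an oxidase that recharges disulfide isomerases, had the lowest level, between 1.30 and 4.58 TPM over the 8 libraries, whereas its relative ERO1A was at 23.5 ± 1.10 TPM with vehicle. On the log2 scale the median member differed between replicates 1 and 2 (first minus second) by -0.08 in vehicle, 0.01 under FeAc and -0.11 under bortezomib, and by -0.28 under both agents, where the median of all genes was -0.17. Replicate 1 of bortezomib plus FeAc held the lowest value of the 8 for 27 of the 52 members. The same share was not counted over all genes, so this is not read as particular to the members. In that group 40 of the 52 members and 64.9% of all genes were lower in replicate 1 than in replicate 2.

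**Figure D2:**
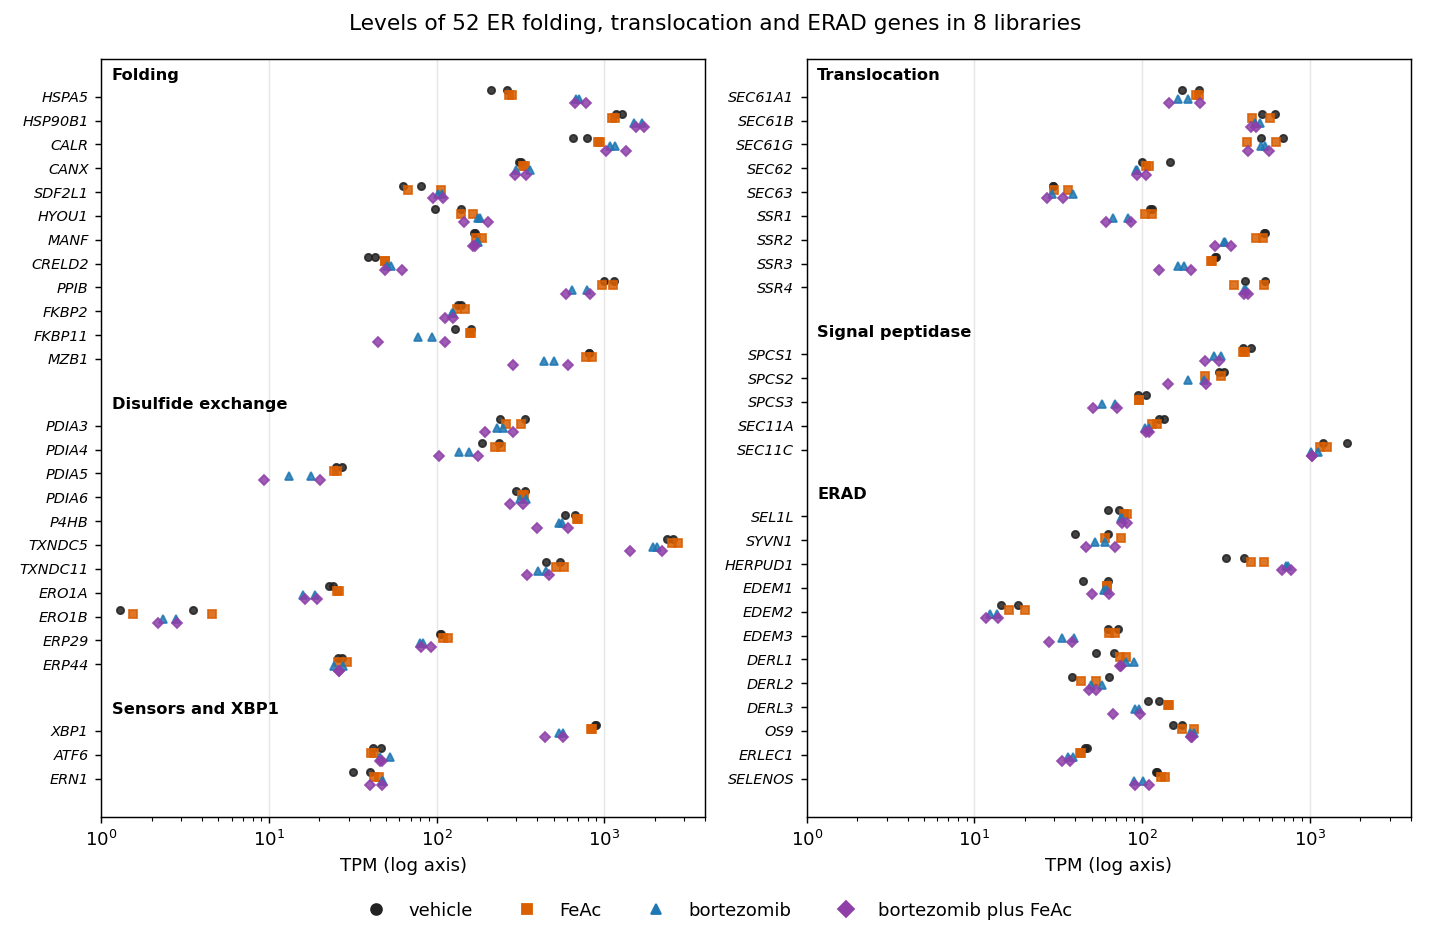
TPM of each of the 52 genes in each of the 8 libraries (x axis, TPM on a log axis; y axis, genes by role), with 2 points per group. HSPA5 and HERPUD1 are higher in all 4 bortezomib-treated libraries than in the other 4, and SSR2, XBP1 and EDEM3 are lower in all 4.

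Plasma cell markers were measured to check the label. Of 9 such genes 8 were at 1 TPM or more in every library, and CD79A was below 1 TPM in all 8. Their summed level was between 5983 and 8197 TPM in vehicle, 6007 and 6586 TPM under FeAc, 4208 and 4717 TPM under bortezomib, and 3386 and 4622 TPM under both agents. The sum was lower in every bortezomib-treated library, and its part in the results below was not tested. Most of it was JCHAIN, the joining chain of secreted antibody, which was at 6844 TPM in vehicle replicate 1 and at 2323 TPM in bortezomib plus FeAc replicate 1. JCHAIN, CD38, TNFRSF17 and SDC1 were each lower in every bortezomib-treated library than in any other library. CD38 was between 30.3 and 40.2 TPM without bortezomib and between 7.49 and 18.4 TPM with it. TNFRSF17 was between 372 and 575 TPM without it and between 320 and 354 TPM with it, and SDC1 between 225 and 314 TPM and between 69.1 and 182 TPM. The markers did not all share this direction. SLAMF7, a surface receptor of plasma cells, was between 238 and 294 TPM without bortezomib and between 343 and 387 TPM with it. IRF4 and PRDM1, transcription factors of plasma cells, overlapped, IRF4 at 111 to 190 TPM without and 115 to 158 TPM with bortezomib, and PRDM1 at 77.4 to 112 TPM and 90.6 to 114 TPM. SDC1, the plasma cell surface proteoglycan, was 69.1 TPM in bortezomib plus FeAc replicate 1 and 182 TPM in replicate 2. Markers of bone marrow stromal cells summed to between 11.2 and 18.9 TPM, and of T cells and myeloid cells to at most 1.40 TPM in every library, with LUM, CD3D and MPO at 0 in all 8. Of single markers, the collagen gene COL1A1 was at most 1.0 TPM without bortezomib and between 3.02 and 4.89 TPM with it, and the globin gene HBB was between 9.70 and 13.5 TPM without it and between 1.62 and 5.18 TPM with it, and their part in the results was not tested. Mitochondrially encoded genes took from 2.99% of the TPM, in bortezomib plus FeAc replicate 1, to 14.3%, in FeAc replicate 1, and were between 8.16% and 14.3% without bortezomib and between 2.99% and 10.1% with it. Because TPM are shares of a total, this share moves all other values, and its part was tested only by leaving those genes out.

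The 4 libraries without bortezomib were deposited in one table and the 4 with it in another. The tables listed the same genes, with sums of 994968 to 996780 TPM per sample, and bortezomib was compared with its control across them, so that the effect of bortezomib and a difference between the tables cannot be told apart. Bulk RNA cannot tell fewer cells of a kind from less RNA per cell. Differences are log2 fold changes on the log2(TPM + 1) scale from limma, with the standard error (SE) and a p-value adjusted by the Benjamini-Hochberg method over all genes tested. A gene was called where the adjusted p was below 0.05 and the fold change above 1.5.

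The first question was what bortezomib did to these genes in cells without added iron. HSPA5 and HERPUD1, the ERAD adaptor that recruits the ubiquitin ligase HRD1, rose, and SSR2, EDEM3 and XBP1 fell, so that 5 of 52 members were called. Of all 14812 genes tested 12.2% were called (6.27% higher, 5.89% lower). At an unadjusted p under 0.05 there were 7 members higher and 13 lower, or 20 of 52, against 30.2% of all genes in either direction. Leaving out 1 library at a time gave 0 to 13 members, with 0 without either bortezomib replicate and 13 without either replicate of bortezomib plus FeAc. The median member had a log2 fold change of -0.21, and the median of all genes was -0.06.

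The same comparison was made in cells that also received FeAc, called iron-loaded here, as bortezomib plus FeAc against FeAc, where 6 members were called, HSPA5 higher and SSR2, SPCS1, EDEM3, DERL3 and XBP1 lower, beside 13.8% of all genes (4.94% higher, 8.86% lower, or 732 and 1312 genes). Leaving out 1 library gave 0 to 18 members, with 0 without either FeAc replicate, 1 without the first replicate of bortezomib plus FeAc and 18 without the second. At an unadjusted p under 0.05, 3 members were higher and 18 lower in iron-loaded cells. These 21 of 52 stand against 32.3% of all genes in either direction. The median member of this comparison was at -0.23 and the median of all genes at -0.17. Scaling by the median of ratios in place of TPM moved the median of all genes to 0 in that comparison and the median member to -0.03, and 15 of the 52 members then had the opposite sign, so that a difference there is best read against -0.17. Of all genes 1063 were then called higher and 850 lower.

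Across the 4 bortezomib-treated and the 4 other libraries, 4 members lay higher without overlap (7.69%, against 13.1% of all genes) and 22 lay lower without overlap (42.3%, against 23.3% of all genes). The 4 were HSPA5, HSP90B1, CALR and HERPUD1. Scaled by the median of ratios, 9 lay higher and 18 lower, against 17.6% and 18.7% of all genes, and SDF2L1, HYOU1, CRELD2, DERL1 and OS9 joined the higher ones. Without bortezomib plus FeAc replicate 1, 6 lay higher and 23 lower, against 15.5% and 24.4% of all genes, and with mitochondrial genes left out 3 lay higher and 24 lower, against 10.9% and 25.7% of all genes.

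**Figure D3:**
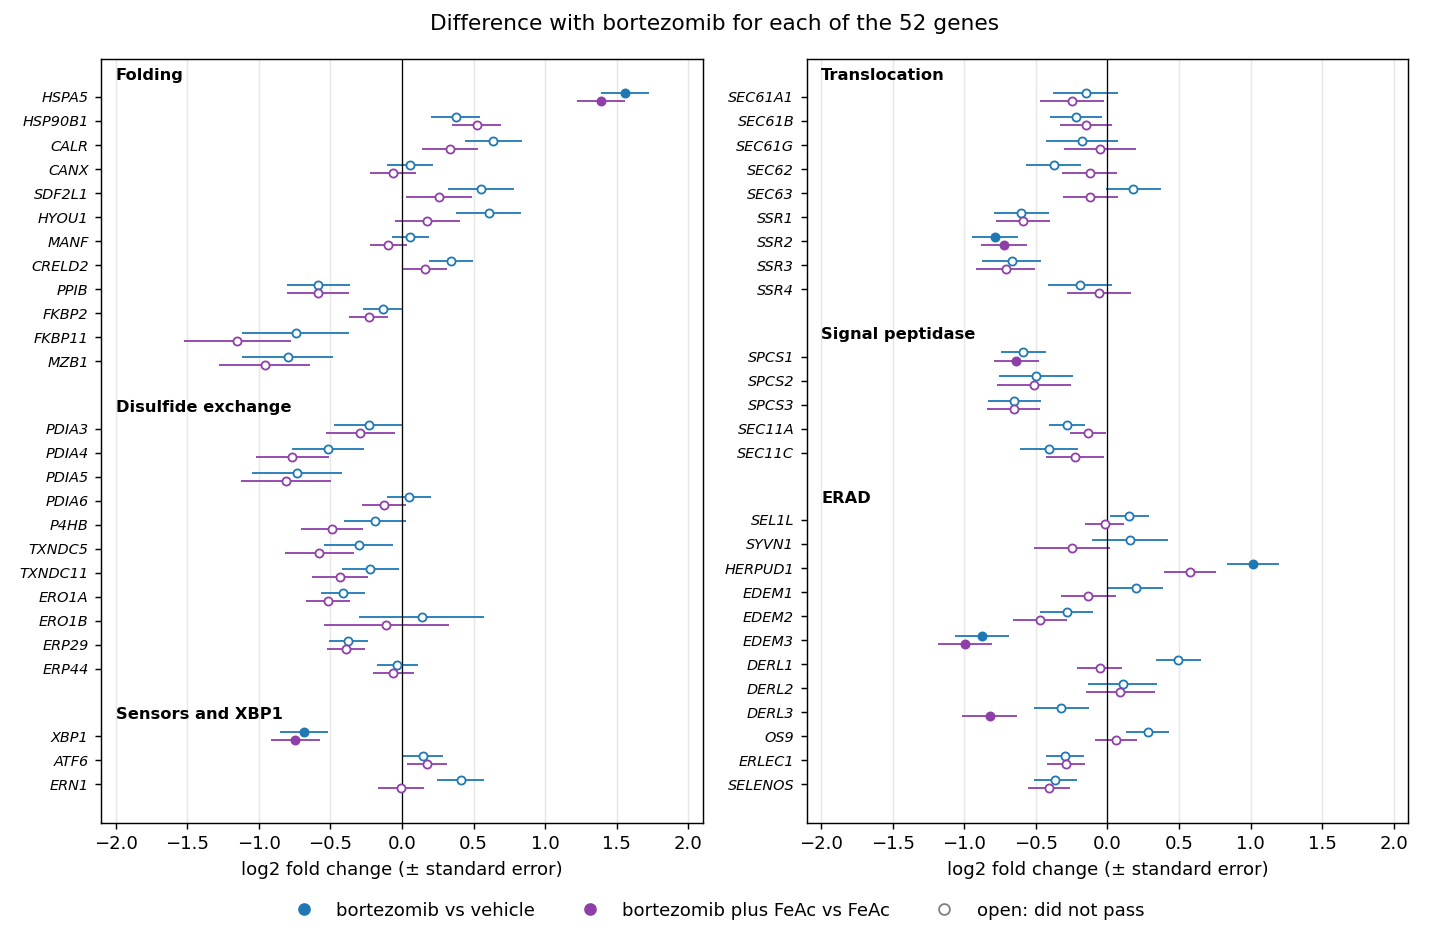
Log2 fold change with its standard error (x axis) for each gene (y axis, by role) with bortezomib against vehicle and with bortezomib plus FeAc against FeAc; filled points passed the test. HSPA5 lies at 1.56 and 1.39, and SSR1, SSR2 and SSR3 of the translocon-associated complex lie to the left of 0 in both.

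Among 12 folding genes, HSPA5 was called higher in both bortezomib comparisons and 0 genes were called lower. The counts for this role and those below stand beside 12.2% of all genes called with bortezomib alone and 13.8% in iron-loaded cells. HSPA5 (chr9:125234853-125241330, GRCh38), which holds unfolded chains and keeps the sensors inactive, was 210.0 and 263 TPM in the vehicle libraries, 281 and 271 TPM under FeAc, 681 and 706 TPM under bortezomib, and 782 and 669.8 TPM under both agents. All 4 bortezomib-treated libraries lay at 669.8 TPM or more and the other 4 at 281 TPM or less, a 2.94-fold difference with bortezomib alone (log2 fold change 1.56, SE 0.17, adjusted p = 0.00287). In iron-loaded cells the log2 fold change was 1.39 (SE 0.17, adjusted p = 0.00603). When only these 4 libraries were fitted, it was the same size with an adjusted p of 0.0508.

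CALR, the lectin chaperone calreticulin, was 652 and 795 TPM in the vehicle libraries, 948 and 925 TPM under FeAc, 1080.0 and 1165 TPM under bortezomib, and 1029 and 1358 TPM under both agents. The libraries with and without bortezomib did not overlap, except with mitochondrial genes left out, and neither difference passed, with log2 fold changes of 0.64 (adjusted p = 0.073) and 0.34 (adjusted p = 0.275). With bortezomib alone it was called when scaled by the median of ratios (0.71, adjusted p = 0.0383) and without bortezomib plus FeAc replicate 1 (0.64, adjusted p = 0.0397). Its level was also higher in both FeAc libraries than in both vehicle libraries, and FeAc against vehicle did not pass (adjusted p = 0.891). HYOU1, a large chaperone that exchanges nucleotide on BiP, was 98.0 and 141 TPM in the vehicle libraries, 166 and 140.2 TPM under FeAc, 182 and 176 TPM under bortezomib, and 146 and 204 TPM under both agents, and its groups overlapped (log2 fold change 0.60, adjusted p = 0.122 with bortezomib alone). Scaled by the median of ratios, HYOU1 was called with bortezomib alone (0.67, adjusted p = 0.0493) and its groups did not overlap. HSP90B1, the ER HSP90, had log2 fold changes of 0.37 and 0.52 (adjusted p = 0.186 and 0.0793) and ranged from 1119 to 1274 TPM without bortezomib and from 1500 to 1722 TPM with it. SDF2L1 and CRELD2, both ER stress genes, were at 0.55 and 0.34 with bortezomib alone, MANF at 0.06 and the lectin chaperone CANX at 0.06, and none of these passed.

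The other folding genes lay on the opposite side. PPIB, the ER prolyl isomerase cyclophilin B, was 1146 and 999 TPM in the vehicle libraries, 977 and 1128 TPM under FeAc, 643 and 793 TPM under bortezomib, and 591 and 826 TPM under both agents. MZB1, a plasma cell cofactor of the ER HSP90, was 817 and 809.8 TPM in the vehicle libraries, 777 and 850.0 TPM under FeAc, 437 and 499.6 TPM under bortezomib, and 285 and 612 TPM under both agents. Both were lower in all 4 bortezomib-treated libraries, with log2 fold changes of -0.58 and -0.80 for bortezomib alone (SE 0.22 and 0.32, adjusted p = 0.12 and 0.14), and neither passed. The wide error of MZB1 goes with the 2 libraries of bortezomib plus FeAc, at 285 and 612 TPM, and without the first of them MZB1 passed with bortezomib alone (adjusted p = 0.0171). FKBP11, a prolyl isomerase of secretory cells, ranged from 128 to 161 TPM without bortezomib and from 44.5 to 113 TPM with it, and FKBP2 from 132 to 149 TPM and from 113 to 126 TPM. With bortezomib alone the folding genes thus held HSPA5, which rose, other chaperones with positive values, and MZB1 and 3 isomerases with negative values that did not pass. Their summed TPM was 5072 ± 23.3 in vehicle, 5315 ± 116 under FeAc, 5648 ± 408 under bortezomib and 5727 ± 585 under both agents (mean ± SD, n = 2).

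**Figure D4:**
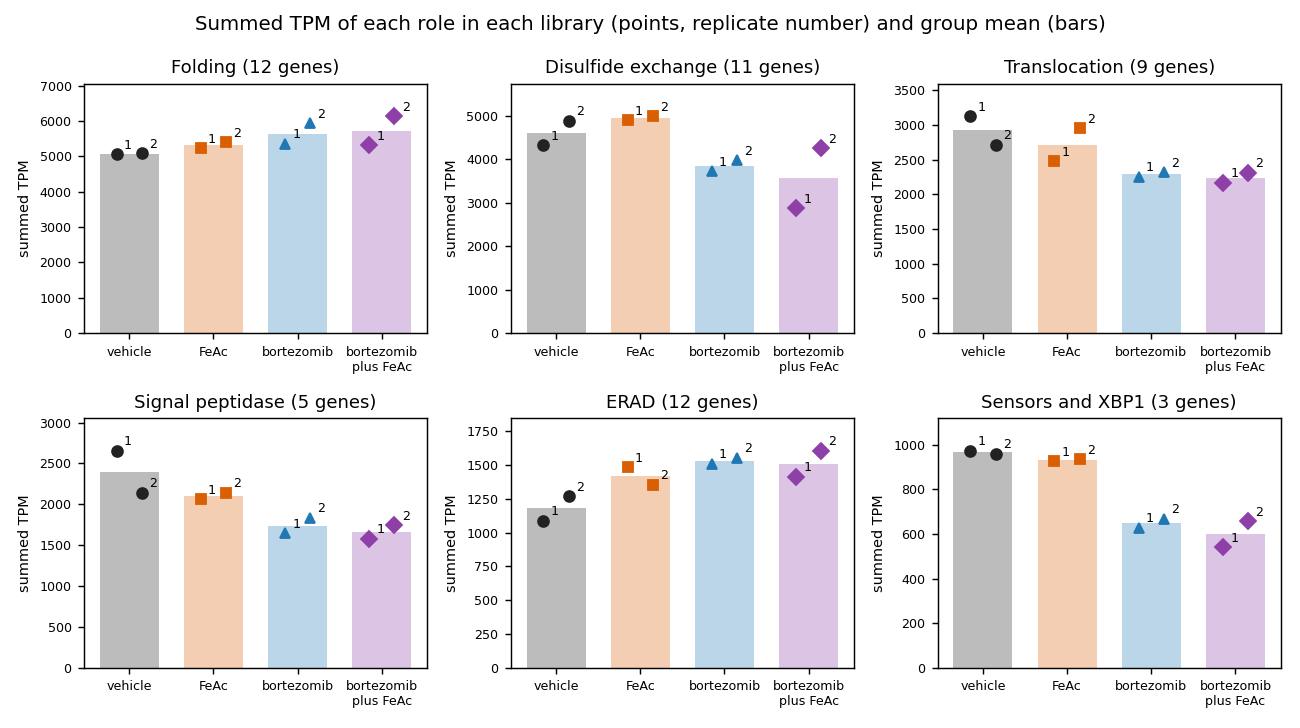
Summed TPM of each role (y axis, from 0) in each of the 8 libraries (points with replicate numbers) and the mean of each group (bars). The sum of the sensors with XBP1 lies at 925 TPM or more in the 4 libraries without bortezomib and at 667 TPM or less in the 4 with it. Most of this sum is XBP1, with means of 886 of 966 TPM in vehicle and 551 of 648 TPM under bortezomib. The sensors ERN1 and ATF6 overlapped between the 2 sides. Bortezomib plus FeAc replicate 1 is low for disulfide exchange at 2877 TPM.

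None of the 11 disulfide exchange genes was called in either bortezomib comparison, beside 12.2% and 13.8% of all genes. With so few genes, this count does not set the role apart from those shares. Their median log2 fold change was -0.23 with bortezomib alone and -0.43 in iron-loaded cells. Scaled by the median of ratios, these medians were -0.17 and -0.24. ERP29, an ER resident of thioredoxin fold without isomerase activity, was 105 and 107 TPM in the vehicle libraries, 109 and 118 TPM under FeAc, 80.2 and 82.8 TPM under bortezomib, and 80.3 and 92.8 TPM under both agents. ERO1A, the oxidase that recharges the isomerases, was 22.7 and 24.2 TPM in the vehicle libraries, 26.4 and 25.6 TPM under FeAc, 16.0 and 18.9 TPM under bortezomib, and 16.5 and 19.2 TPM under both agents. PDIA5 was 25.1 and 27.3 TPM in the vehicle libraries, 24.5 and 25.3 TPM under FeAc, 13.2 and 17.8 TPM under bortezomib, and 9.32 and 20.1 TPM under both agents. All 3 were lower in every bortezomib-treated library, by log2 fold changes of -0.38, -0.41 and -0.74 with bortezomib alone (adjusted p = 0.11, 0.123 and 0.162).

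PDIA4, an isomerase with several active domains, was 187 and 236 TPM in the vehicle libraries, 241 and 223 TPM under FeAc, 136 and 157 TPM under bortezomib, and 104 and 177 TPM under both agents. TXNDC5, the isomerase with the highest level of the 52 genes, was 2386 and 2579 TPM in the vehicle libraries, 2538 and 2769.5 TPM under FeAc, 1964 and 2064 TPM under bortezomib, and 1424 and 2216 TPM under both agents. Both were again lower without overlap, and bortezomib plus FeAc replicate 1 was the lowest library for each. Their log2 fold changes were -0.52 and -0.30 with bortezomib alone and -0.77 and -0.58 in iron-loaded cells, and neither passed. P4HB, PDIA3 and PDIA6, the common isomerases, overlapped between the libraries with and without bortezomib, as did TXNDC11, ERO1B and ERP44. The summed TPM of this role was 4607 ± 399 in vehicle, 4941 ± 68.2 under FeAc, 3846 ± 178 under bortezomib and 3565 ± 973 under both agents, where the replicates were at 2877 and 4253 TPM.

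Of 9 translocation genes, SSR2 was called lower in both bortezomib comparisons. SSR2 (chr1:156009048-156020959), a subunit of the translocon-associated complex (TRAP) that sits beside the SEC61 channel, was 532 and 543 TPM in the vehicle libraries, 528 and 482 TPM under FeAc, 309 and 314 TPM under bortezomib, and 274 and 340.1 TPM under both agents. The 2 sides did not overlap, and SSR2 fell 1.72-fold with bortezomib alone (log2 fold change -0.79, SE 0.16, adjusted p = 0.021), and its log2 fold change was -0.72 in iron-loaded cells (SE 0.16, adjusted p = 0.0281). Scaled by the median of ratios, the latter was -0.53, under the fold change threshold.

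SSR3, another TRAP subunit, was 275 and 271 TPM in the vehicle libraries, 257 and 262 TPM under FeAc, 165 and 178 TPM under bortezomib, and 127 and 197 TPM under both agents. SSR1, also of TRAP, was 115 and 112 TPM in the vehicle libraries, 105 and 114 TPM under FeAc, 66.8 and 82.7 TPM under bortezomib, and 61.1 and 85.7 TPM under both agents. Both were lower in every bortezomib-treated library and neither passed, at log2 fold changes of -0.67 and -0.60 with bortezomib alone (adjusted p = 0.0736 and 0.0799). The fourth TRAP subunit, SSR4, overlapped, at 355 to 541 TPM without bortezomib and 406 to 428 TPM with it. The channel itself did not separate the libraries. SEC61B, its beta subunit, was 619.8 and 519.6 TPM in the vehicle libraries, 451 and 583 TPM under FeAc, 470.4 and 506 TPM under bortezomib, and 444 and 481 TPM under both agents, and SEC62, which serves transport after translation, was 146 and 99.4 TPM in the vehicle libraries, 106 and 109.7 TPM under FeAc, 93.3 and 92.1 TPM under bortezomib, and 105 and 92.7 TPM under both agents. SEC61A1, SEC61G, SEC61B, SEC62 and SEC63 all overlapped, with log2 fold changes between -0.37 (SEC62) and 0.18 (SEC63) for bortezomib alone.

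The 5 signal peptidase genes all had negative values in both comparisons, except that SEC11A was above 0 in iron-loaded cells when scaled by the median of ratios. Their median log2 fold change was -0.50 with bortezomib alone and -0.52 in iron-loaded cells. Scaled by the median of ratios, these medians were -0.44 and -0.32. SPCS1 (chr3:52704955-52711146), an accessory subunit, was 449 and 399 TPM in the vehicle libraries, 403 and 413 TPM under FeAc, 268 and 296 TPM under bortezomib, and 238 and 288 TPM under both agents. It was called lower in iron-loaded cells (log2 fold change -0.64, SE 0.16, adjusted p = 0.039) and was just outside the threshold with bortezomib alone (-0.59, adjusted p = 0.0504). Scaled by the median of ratios, the difference in iron-loaded cells was -0.44 and did not pass.

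SPCS3, a further subunit, was 106 and 94.8 TPM in the vehicle libraries, 96.3 and 95.6 TPM under FeAc, 58.1 and 69.4 TPM under bortezomib, and 51.3 and 71.4 TPM under both agents (log2 fold change -0.65, adjusted p = 0.0602 with bortezomib alone). SEC11A, one catalytic subunit, was 135 and 127 TPM in the vehicle libraries, 115 and 122 TPM under FeAc, 104 and 109.8 TPM under bortezomib, and 105 and 110.5 TPM under both agents. SEC11C, the other catalytic subunit, was 1678 and 1209.8 TPM in the vehicle libraries, 1152 and 1276 TPM under FeAc, 1026 and 1124 TPM under bortezomib, and 1039 and 1033 TPM under both agents. These 3 and SPCS1 lay lower in all 4 bortezomib-treated libraries, and with the median of ratios SEC11A and SEC11C overlapped. SPCS2 was 286 and 309.9 TPM in the vehicle libraries, 298 and 238 TPM under FeAc, 188 and 235 TPM under bortezomib, and 143 and 241 TPM under both agents, and the second library of bortezomib plus FeAc overlapped FeAc. The role summed to 2397 ± 363 TPM in vehicle, 2104 ± 56.5 under FeAc, 1739 ± 134 under bortezomib and 1661 ± 119 under both agents.

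Of 12 ERAD genes, HERPUD1 was called higher and EDEM3 lower with bortezomib alone, and EDEM3 and DERL3 lower in iron-loaded cells. HERPUD1 (chr16:56932048-56944863) was 318 and 408 TPM in the vehicle libraries, 532 and 449 TPM under FeAc, 722 and 739 TPM under bortezomib, and 684 and 779 TPM under both agents. The 4 bortezomib-treated libraries lay at 684 TPM or more and the others at 532 TPM or less. Both FeAc libraries lay above both vehicle libraries, and FeAc against vehicle did not pass (adjusted p = 0.891). HERPUD1 rose 2.02-fold with bortezomib alone (log2 fold change 1.02, SE 0.18, adjusted p = 0.0149) and did not pass in iron-loaded cells (0.58, SE 0.18, adjusted p = 0.0734). The interaction, which compares the 2 differences, was -0.44 (SE 0.26, adjusted p = 0.983) and did not pass, and scaled by the median of ratios HERPUD1 passed in iron-loaded cells too (0.77, adjusted p = 0.0251).

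EDEM3 (chr1:184690231-184754913), a mannosidase that marks misfolded glycoproteins for ERAD, was 62.3 and 72.1 TPM in the vehicle libraries, 68.7 and 63.6 TPM under FeAc, 33.4 and 39.0 TPM under bortezomib, and 27.7 and 38.4 TPM under both agents. It fell 1.83-fold with bortezomib alone (log2 fold change -0.87, SE 0.19, adjusted p = 0.0259), and its log2 fold change was -0.997 in iron-loaded cells (SE 0.19, adjusted p = 0.0191). Its relatives EDEM1 and EDEM2 differed from it in level and pattern. EDEM1 ranged from 44.3 to 62.4 TPM without bortezomib and from 50.02 to 63.1 TPM with it, and EDEM2 from 14.3 to 20.1 TPM and from 11.7 to 13.9 TPM.

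DERL3 (chr22:23834503-23839128), a derlin of secretory cells that takes part in the return of chains to the cytosol, was 108 and 126 TPM in the vehicle libraries, 145 and 143 TPM under FeAc, 96.4 and 90.4 TPM under bortezomib, and 67.2 and 97.7 TPM under both agents. It was called lower in iron-loaded cells (log2 fold change -0.82, SE 0.19, adjusted p = 0.0329), and with bortezomib alone it was at -0.32 (adjusted p = 0.295). Without bortezomib plus FeAc replicate 1 the former was -0.56 and did not pass. DERL1, another derlin, was 52.9 and 67.7 TPM in the vehicle libraries, 80.4 and 74.2 TPM under FeAc, 80.4 and 89.4 TPM under bortezomib, and 74.8 and 73.9 TPM under both agents, with a log2 fold change of 0.50 with bortezomib alone (adjusted p = 0.0805) and -0.05 in iron-loaded cells. DERL2 was at 0.11 and 0.09, so the 3 derlins had no common direction.

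SELENOS, a selenoprotein that joins derlins to the ATPase VCP, was 123 and 122 TPM in the vehicle libraries, 130.3 and 137 TPM under FeAc, 89.0 and 101 TPM under bortezomib, and 91.1 and 111 TPM under both agents. ERLEC1, a lectin that reads trimmed glycans, was 45.9 and 47.1 TPM in the vehicle libraries, 43.5 and 42.5 TPM under FeAc, 39.0 and 36.4 TPM under bortezomib, and 33.1 and 37.0 TPM under both agents. Both lay lower in every bortezomib-treated library without passing (log2 fold changes -0.36 and -0.30, adjusted p = 0.148 and 0.178). The second lectin, OS9, had a positive value (0.28), and the core of the HRD1 ligase, SYVN1 and its partner SEL1L, had 0.16 and 0.15 with bortezomib alone, none of which passed. Summed TPM of the ERAD genes was 1180 ± 129 in vehicle, 1420 ± 91.6 under FeAc, 1534 ± 31.5 under bortezomib and 1510 ± 134 under both agents, of which HERPUD1 alone made 363, 491, 730 and 731 TPM.

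XBP1 and the sensors ERN1 and ATF6 were at very different levels. XBP1 (chr22:28794555-28800597), whose gene-level values do not separate the spliced form, was 893 and 878 TPM in the vehicle libraries, 838 and 851 TPM under FeAc, 535 and 567 TPM under bortezomib, and 445 and 569.7 TPM under both agents. It fell 1.61-fold with bortezomib alone (log2 fold change -0.69, SE 0.17, adjusted p = 0.0393), and its log2 fold change was -0.74 in iron-loaded cells (SE 0.17, adjusted p = 0.0307). The libraries did not overlap, and scaled by the median of ratios the second difference was -0.55 with an adjusted p of 0.0603.

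ERN1, the gene of IRE1, was 31.6 and 40.1 TPM in the vehicle libraries, 45.4 and 42.4 TPM under FeAc, 47.9 and 47.4 TPM under bortezomib, and 47.1 and 40.3 TPM under both agents. ATF6 was 46.9 and 41.9 TPM in the vehicle libraries, 42.3 and 40.5 TPM under FeAc, 45.7 and 53.0 TPM under bortezomib, and 47.5 and 46.3 TPM under both agents. Neither passed, with log2 fold changes of 0.41 and 0.15 with bortezomib alone (adjusted p = 0.136 and 0.521), and both overlapped between the libraries with and without bortezomib.

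The genes with an ERSE or ERSE-II did not share 1 direction. With bortezomib alone HSPA5 and HERPUD1 rose and XBP1 fell, HYOU1, SDF2L1, CALR, HSP90B1 and CRELD2 lay between 0.34 and 0.64 without passing on the TPM scale, and CANX, PDIA6 and ERO1B lay between 0.05 and 0.14.

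The second question was whether FeAc changed these genes. These comparisons share their vehicle, FeAc and bortezomib libraries with those above and are not independent of them. With FeAc against vehicle 0 of 52 members were called by limma, beside 0.0143% of the 13998 genes tested (2 genes), and 0 members against 3.82% of all genes had an unadjusted p under 0.05. HERPUD1 had the largest difference, with a log2 fold change of 0.44 (SE 0.19, adjusted p = 0.891), and SYVN1 followed at 0.42. CALR, HYOU1 and DERL1 were at 0.38, 0.38 and 0.36, all 5 signal peptidase genes had negative values, between -0.23 (SEC11C) and -0.05 (SPCS1), and none passed. The median member was at 0.08 and the median of all genes at 0.09.

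With bortezomib plus FeAc against bortezomib 0 of 52 members were called, beside 0.00721% of the 13865 genes tested (1 gene), and 0 members against 2.09% of all genes had an unadjusted p under 0.05. The values ran from -0.26 for FKBP11 (SE 0.43) to 0.09 for SEC62 (SE 0.15), and HSPA5, at 693 ± 17.5 TPM with bortezomib and 726 ± 79.1 TPM with bortezomib plus FeAc, differed by less than the spread of the latter. The interaction of FeAc and bortezomib, the difference between the 2 bortezomib comparisons, was called for 0 of 52 members (0.00675% of all genes, 1 gene), and DERL1 alone had an unadjusted p under 0.05 (-0.55, SE 0.22, adjusted p = 0.983), against 2.35% of all genes. With 2 libraries a group and unknown depth, these counts do not show that FeAc left the genes unchanged. For FeAc-treated MM.1S cells the paper reports many more genes at the same thresholds, and its calls were not used here.

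Other genes of the pathway were followed as lists. Their counts stand beside 12.2% of all genes called with bortezomib alone and 13.8% in iron-loaded cells. In lists this short, a count of 0 does not set a list apart from those shares. With bortezomib alone 0 of 11 tested subunits and partners of the oligosaccharyltransferase, which adds glycans to entering chains, were called, nor were any of 8 signal recognition particle genes or 8 genes of glycan trimming. STT3B, a catalytic oligosaccharyltransferase subunit, was at -0.58 (adjusted p = 0.0623), and UGGT2, related to the glycoprotein folding sensor, was called lower in iron-loaded cells (-0.74, adjusted p = 0.039) and was at -0.60 with bortezomib alone (adjusted p = 0.0723). Of 6 ER DNAJ cochaperones of BiP, DNAJC3 rose (0.60, adjusted p = 0.0332) and DNAJC10 fell (-0.94, adjusted p = 0.0452) with bortezomib alone. In iron-loaded cells DNAJC10 fell too (-1.01, adjusted p = 0.0357), and DNAJC3 was at 0.27 (adjusted p = 0.227) and did not pass. Of 6 genes of ATF6 processing and its relatives, CREB3L4 fell in both (-0.96, adjusted p = 0.0139, and -0.74, adjusted p = 0.0306 in iron-loaded cells).

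Of 17 other ERAD genes, 5 rose and 3 fell with bortezomib alone, and 4 rose and 3 fell in iron-loaded cells. Of all genes, 6.27% were called higher and 5.89% lower with bortezomib alone, and 4.94% and 8.86% in iron-loaded cells. NPLOC4, UFD1 and UBXN4, which work with the ATPase VCP in pulling chains out of the membrane, had log2 fold changes of 1.72, 1.49 and 1.13 (adjusted p = 0.00261, 0.00365 and 0.00405), and VCP was at 1.11 (adjusted p = 0.0134). NPLOC4 was 45.8 and 55.9 TPM in the vehicle libraries, 63.9 and 63.6 TPM under FeAc, 177 and 162 TPM under bortezomib, and 130.3 and 172 TPM under both agents. UBE2J1, UBAC2 and RNF5, which act in ubiquitination at the membrane, were the ones that fell. Of 10 genes of the PERK branch, 6 rose and 0 fell with bortezomib alone and 5 rose and 0 fell in iron-loaded cells, with a list median of 1.24 against -0.06 for all genes with bortezomib alone. CHAC1, PPP1R15A and SESN2, targets of ATF4, had log2 fold changes of 2.05, 2.21 and 1.66 (adjusted p = 0.00609, 0.00817 and 0.0145). Under both agents replicate 1 lay well above replicate 2 for these genes. CHAC1 was 15.2 and 9.08 TPM there, PPP1R15A 356 and 167 TPM, and SESN2 24.75 and 13.5 TPM. EIF2AK3, the gene of PERK, was at -0.10 with bortezomib alone (adjusted p = 0.746) and at -0.03 in iron-loaded cells (adjusted p = 0.926). The activity of PERK was not measured, and its part in these rises was not tested.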

How the data were processed

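The deposited values were read as TPM, from column sums between 994968 and 996780, since the headers name no unit. Per the submitters' processing notes, build GRCh38.p13 was used, with edgeR, DESeq2, RSEM, StringTie and HISAT2 named without versions or roles. The authors' fold changes, log2 fold changes, p-values and calls stand in the same 2 tables and were not used. Depth is unknown, since no counts were used.

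Genes averaging 1 TPM or more in any group of the fit were tested with limma-trend (limma 3.58.1, R 4.3.3) on log2(TPM + 1), with Benjamini-Hochberg adjustment over all genes tested. FeAc comparisons were fitted within their table. Bortezomib comparisons and the interaction came from 1 fit of all 4 groups across both tables. A log2(TPM + 1) difference understates the change of low genes. All 52 members were described by role, with every library's value for the 5 of each role with the smallest adjusted p for bortezomib against vehicle and for all 3 sensors, and up to 3 genes per comparison list by the same order; others named were chosen after their values were seen. The members and lists were chosen with earlier results of these data known. The test was checked on simulated data. Gene positions are GENCODE release 29 (GRCh38) and promoters RefSeq GRCh38.p14. Alternatives were a pseudocount of 0.1, no filter, a minimum of 5 TPM, median of ratios scaling, mitochondrial genes left out, other samples in the fit, a replicate block, no fold change threshold, and each library left out. P-values rest on the spread between the 2 samples of each group in the fit, pooled over groups. Limma draws this spread towards that of genes of similar level. For the bortezomib comparisons it thus includes the groups that were not compared. The summed level of one marker list is not reported here.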

Additional observations from a re-analysis of the deposited data

How the results depend on the processing

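The count of members called was 0 with FeAc against vehicle, with bortezomib plus FeAc against bortezomib and for the interaction under every alternative run. With bortezomib against vehicle the 5 calls became 2 without a filter on low values, where HSPA5 and HERPUD1 remained, and 11 when only the 2 groups were fitted, with PDIA5, SSR3, SPCS1, SPCS3, FKBP11 and MZB1 added as lower. Leaving out 1 library gave 0 to 13 calls: 0 without either bortezomib replicate, 1 and 2 without vehicle replicates 1 and 2, 3 and 2 without FeAc replicates 1 and 2, and 13 without either replicate of bortezomib plus FeAc. With median of ratios scaling 7 members were called with bortezomib, 4 higher and 3 lower in place of 2 and 3, as CALR and HYOU1 joined the 5. In iron-loaded cells 4 were called, HSPA5 and HERPUD1 higher and EDEM3 and DERL3 lower, 3 of them among the 6, in place of 1 higher and 5 lower, so the split into higher and lower members depended on the scaling. With bortezomib plus FeAc against FeAc the 6 calls became 1, HSPA5, without a filter and 0 when only the 2 groups were fitted. Leaving out 1 library gave 0 to 18: 0 without either FeAc replicate, 1 without either bortezomib replicate, 2 without either vehicle replicate, 1 without bortezomib plus FeAc replicate 1 and 18 without replicate 2. Where a group kept 1 library, that library was assumed to vary like the others. The cause of these changes was not tested. No sign of a called member reversed.

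Over all genes, the calls with bortezomib were 1800 (928 higher, 872 lower) and became 799 without a filter. In iron-loaded cells 2044 calls (732 higher, 1312 lower) became 1913 (1063 higher, 850 lower) with median of ratios scaling, 613 without a filter and 107 with only the 2 groups fitted. Leaving out 1 library gave 74 to 2255 calls with bortezomib and 55 to 3275 in iron-loaded cells. Over all alternatives the 2 genes called with FeAc became 0 to 23, the 1 gene called with bortezomib plus FeAc against bortezomib 0 to 1, and the 1 gene of the interaction 0 to 18.

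Whether replicate numbers pair the samples was not settled, because weak correlations cannot exclude a shared origin. Deviations of same-numbered samples correlated at -0.160 (vehicle and FeAc) to 0.204 (vehicle and bortezomib plus FeAc) over the 6 pairs of groups. For bortezomib and bortezomib plus FeAc the correlation was 0.0651. With the replicate number as a block, 4 members were called with bortezomib (XBP1 did not pass), 5 in iron-loaded cells (SPCS1 did not pass) and 0 in the other comparisons. Over all genes that fit called 1479 with bortezomib in place of 1800, 1728 in iron-loaded cells in place of 2044, 23 with FeAc in place of 2, 1 with bortezomib plus FeAc against bortezomib and 0 for the interaction in place of 1. The crossed pairing, chosen after seeing the data, called 0 members and 16 genes with FeAc. Alternatives for overlap between libraries were also chosen after seeing the data.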
